A study of Mus musculus with 6 samples.

Results

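The genes described here are 10 genes of muscle calcium handling, Ryr1, Cacna1s, Atp2a1, Atp2a2, Casq1, Casq2, Pvalb, Jph1, Stac3 and Sln. They were chosen by name, and each peak of 6 lists that lay in the gene or within 10 kb of either end was taken. They are 10 of 21883 protein-coding genes on mouse chromosomes 1 to 19, X and Y, and their windows span 707 kb. The peaks come from CUT&RUN, a method that cuts DNA loose at nucleosomes bound by an antibody and sequences it, in gastrocnemius muscle of 4-week-old male C57BL/6 mice. The study asks what PHF2, a JmjC-domain protein described as an eraser of the repressive mark H3K9me2, does in skeletal muscle. Knockout mice (CKO) were Phf2 flox/flox;Acta1 Cre+, with Cre under the promoter of skeletal actin, and controls (Ctrl) were Phf2 flox/flox;Acta1 Cre-. Both genotypes carried the floxed alleles.

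The peak lists were 1 of H3K4me3, a mark of active promoters, in Ctrl, 1 of H3K9me2 in CKO and 1 in Ctrl, and 1 input in CKO and 2 in Ctrl. The title of the H3K4me3 library says wild type, and its genotype label says Ctrl. Acta1 is a gene of muscle fibres, so the other cell types of the tissue may keep Phf2, and the labels do not say whether the libraries came from separate animals. Each mark has 1 library in a genotype, so CKO and Ctrl were compared without replicates and without a test.

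Contraction of a muscle fibre starts when depolarisation of the transverse tubule moves a voltage sensor that opens calcium channels in the facing sarcoplasmic reticulum. Calcium bound to buffer proteins inside the reticulum flows out and activates the sarcomere. Pumps in the reticulum membrane then return it, and in fast fibres a cytosolic buffer hastens relaxation. Cacna1s, Stac3, Ryr1 and Jph1 serve the release step, Casq1 and Casq2 store calcium, Atp2a1, Atp2a2 and Sln serve its return, and Pvalb buffers it.

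There were 16573 H3K4me3 peaks, with a median summit of 52 fragments. H3K9me2 had 12832 peaks in CKO and 3703 in Ctrl, with median summits of 9 and 6 fragments. The input lists held 10931 peaks in CKO, against 3071 and 1309 in Ctrl, so the CKO input stood apart in length. Of 10 marker genes of muscle fibres, 4 had an H3K4me3 peak within 2 kb of the start (Tnnt3, Des, Tnni2 and Actn3), and Acta1, Ckm, Mb, Myh4, Myh1 and Mylpf did not. That is below the 60% of all coding genes, so H3K4me3 at starts does not by itself check the tissue label. In the gene or 10 kb either side, 8 of the 10 fibre markers had an H3K4me3 peak, against 68.1% of coding genes. Among markers of other cells in muscle, Pax7 had a peak within 2 kb of the start, and Pdgfra, Cdh5, Pecam1, Ptprc and Plin1 did not. Of 3 heart markers 0 did.

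**Figure D1:**
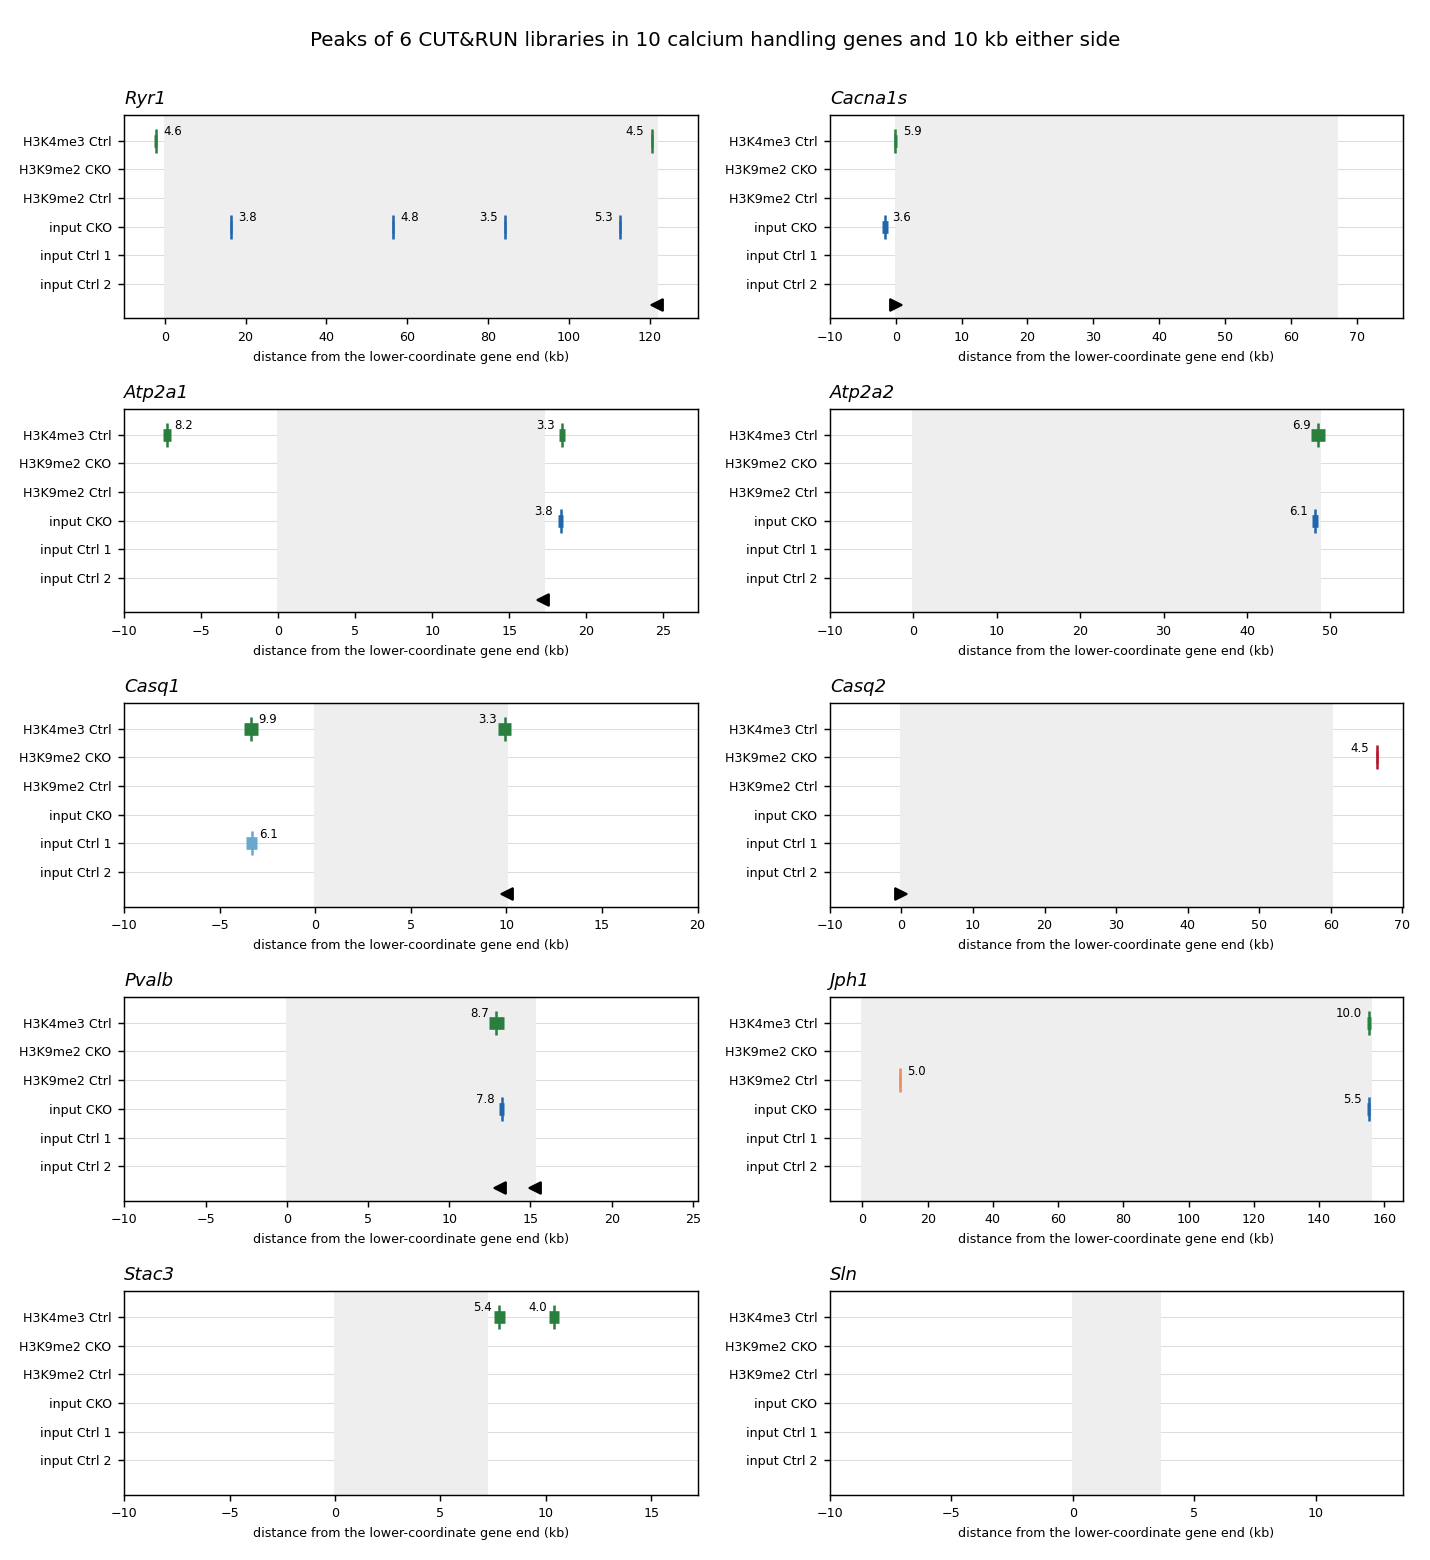
Peaks of the 6 libraries in each of the 10 genes (grey) and 10 kb either side, against the distance in kb from the gene end with the lower coordinate, with each peak's fold over local background beside it. Black triangles mark listed starts and the direction of transcription, and 4 genes have none listed. H3K4me3 peaks gather at starts and gene ends, whereas H3K9me2 has 1 peak in CKO (beside Casq2) and 1 in Ctrl (in Jph1).

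H3K4me3 in Ctrl muscle shows which of these genes carried the promoter mark. A peak lay within 2 kb of the start of 8 of the 10 genes, where 60% of all 21883 coding genes had one (60.2% of those with a listed start). For Atp2a2, Jph1, Stac3 and Sln no strand was used, so either gene end was accepted. The count is of peaks near starts or ends: those of Ryr1 and Atp2a1 did not cover the start. That of Stac3 lay over its neighbour Ndufa4l2. With either end accepted for every gene, the count was again 8 of 10, against 59.5%. Casq2 and Sln had no H3K4me3 peak in their windows at all. In the whole windows the count was also 8 of 10, against 68.1% of coding genes, and the windows held 12 peaks, or 1.70 per 100 kb, against 1.59 over the windows of all coding genes. The genes thus had H3K4me3 about as often as coding genes in general.

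The peaks that were present were low. Over the 8 genes the median fold over local background was 5.65 and the median summit 21 fragments, where the 13138 coding genes with a start peak had medians of 11.2 and 68. No gene of the 8 reached the median fold of the H3K4me3 list, 10, which 61.9% of the coding genes with a start peak did. Of the 4 fibre markers with a start peak 0 reached it either, with medians of 7.52 in fold and 40.5 in fragments, so this is not particular to the 8. Fold is relative to local background and the fragments are not, and by fold 8 and by fragments 7 of the 8 genes lay below the median of coding genes with a start peak. The exception by fragments was Jph1.

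**Figure D2:**
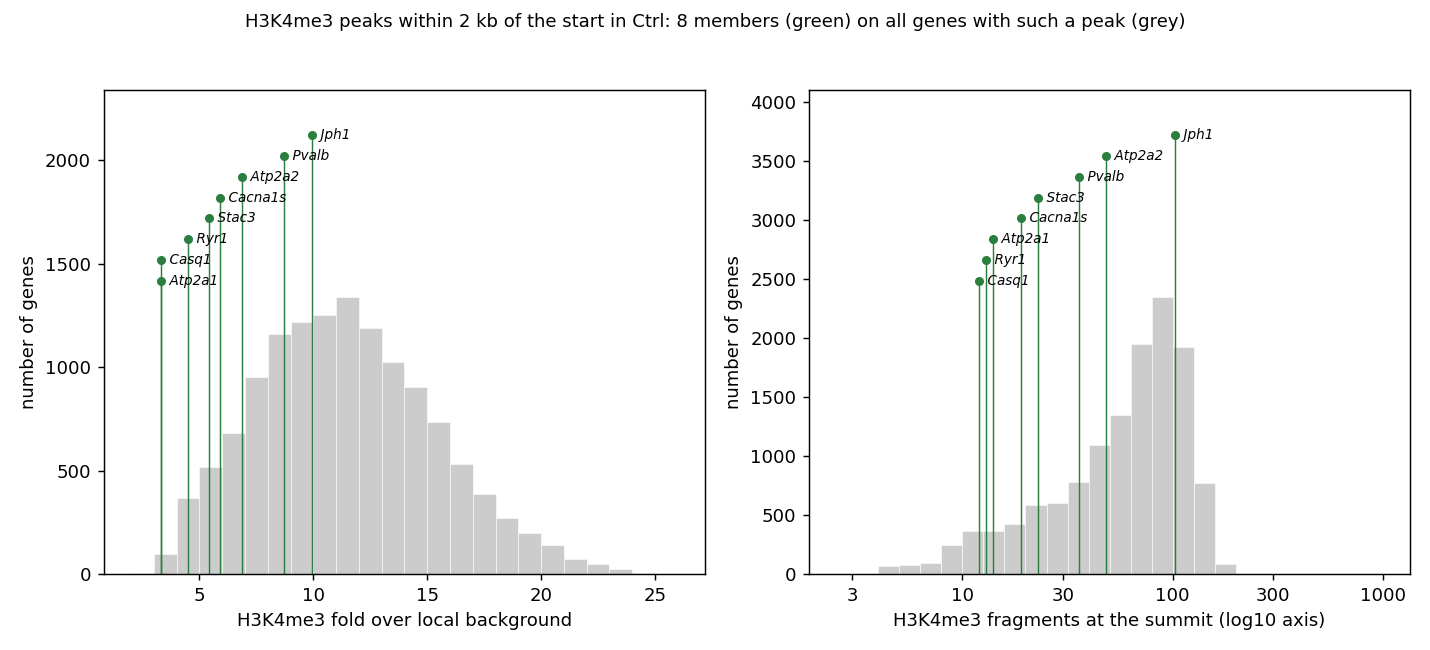
Number of coding genes with an H3K4me3 peak within 2 kb of the start (grey bars) by the peak's fold over local background (left) and by fragments at its summit (right, log10 axis), with the 8 calcium handling genes as green lines. The fold ranges from 3.30 at Atp2a1 to 9.95 at Jph1, and the fragments from 12 at Casq1 to 103 at Jph1.

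Among the genes of the release step, Jph1 carried the highest peak. Junctophilin 1 holds the reticulum close to the transverse tubule, and its gene lies on chromosome 1, 16942104 to 17097922. The H3K4me3 peak at chr1:17096743-17098197 covered the higher-coordinate gene end, with a fold of 9.95, 103 summit fragments and a width of 1455 bp. Its fragments exceeded those of 81.2% of coding genes with a start peak and its fold exceeded 37.7%. A noncoding gene, Gm46085, also begins or ends under this peak, at 17097833, so the mark cannot be given to Jph1 alone.

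Cacna1s encodes the voltage sensor of the transverse tubule (chromosome 1, 136052806 to 136119822, plus strand). Its H3K4me3 peak, chr1:136052514-136053005, spanned the start at 136052811 with the summit 36 bp from it. The fold was 5.89 and the summit held 19 fragments over a local background of 2.40. This peak overlapped no peak of another list.

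Ryr1 encodes the release channel itself (chromosome 7, 29003340 to 29125179, minus strand). The nearest H3K4me3 peak, chr7:29123678-29124021, lay inside the gene and stopped 1.13 kb short of the start at 29125151. It had a fold of 4.51 on 13 fragments. The start itself was thus not covered, and with a limit of 1 kb Ryr1 has no start peak. A second peak in the Ryr1 window, chr7:29000813-29001556 (fold 4.60, 9 fragments), lay in the neighbouring gene Map4k1.

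Stac3 encodes an adaptor that the voltage sensor needs for its placement and function (chromosome 10, 127501617 to 127508823). Both H3K4me3 peaks of its window lay outside the gene, in Ndufa4l2. The nearer, chr10:127509157-127509674 (fold 5.41, 23 fragments), was 334 bp from an end of Stac3 and covered the adjacent end of Ndufa4l2 at 127509274. The farther, chr10:127511784-127512249, had a fold of 4.05 on 19 fragments. The count of 8 therefore includes Stac3 through a peak over its neighbour.

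Of the calcium stores, the fast form had a peak at its start and the cardiac form none. Casq1, the calsequestrin of fast fibres (chromosome 1, 172209894 to 172219895, minus strand), had a peak over its start, chr1:172219456-172220139, with the summit 6 bp from it. The peak was weak, with a fold of 3.31 on 12 fragments over a background of 2.92. A much stronger peak 13 kb away, chr1:172206135-172206878 (fold 9.91, 42 fragments), covered the start of the neighbour Pea15a. Casq2, the calsequestrin of heart and slow muscle (chromosome 3, 102086415 to 102146514, plus strand), had no H3K4me3 peak nearer than 46.9 kb.

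Of the calcium pumps, Atp2a2 had the peak with more fragments. Atp2a1 encodes SERCA1, the pump of fast fibres (chromosome 7, 126445858 to 126463103, minus strand), and the gastrocnemius is mostly fast. Its nearest H3K4me3 peak, chr7:126464097-126464469, lay 1.02 kb upstream of the start, with a fold of 3.30 on 14 fragments. The other peak of its window, chr7:126438388-126438923 (fold 8.20, 19 fragments), lay in Rabep2. Atp2a2 encodes SERCA2, the pump of heart, slow fibres and, in another splice form, most cells (chromosome 5, 122453513 to 122502225). Its peak, chr5:122501200-122502818, spanned the higher-coordinate gene end, with a fold of 6.88 on 48 fragments. At 1619 bp it was wider than 95.9% of start peaks. Within both pairs 1 library gives no error for such an order, and peak height is not expression.

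Sln encodes sarcolipin, a small inhibitor of the pumps (chromosome 9, 53850251 to 53853849). It was the only gene of the 10 with no peak of any list in its window. The nearest H3K4me3 peak was 78.2 kb away.

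Pvalb encodes parvalbumin, the cytosolic buffer of fast fibres (chromosome 15, 78191112 to 78206400, minus strand), and has 2 listed starts 2.16 kb apart. The H3K4me3 peak, chr15:78203534-78204487, lay on the inner start at 78204237, with the summit 8 bp from it, a fold of 8.71 and 36 fragments. It stopped 1.91 kb short of the outer start at 78206400, which is also the gene end. The mark was therefore placed at 1 of the 2 starts of this gene.

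The promoter sequences show what the marked and unmarked starts look like. RefSeq (GRCm38.p6, the assembly behind mm10) gave promoter windows, 250 bases before to 50 after a start, for 6 of the 10 genes and 7 starts, and none was used for Atp2a2, Jph1, Stac3 and Sln. The windows below run 5′ to 3′ on the gene's strand, and capitals mark CpG dinucleotides. The Pvalb pair is shown because the mark is on the first and not on the second, Cacna1s and Casq1 as marked starts with few CpG, and Casq2 as an unmarked one. They lie at chr15:78204188-78204487 (minus), chr15:78206351-78206650 (minus), chr1:136052561-136052860 (plus), chr1:172219846-172220145 (minus) and chr3:102086165-102086464 (plus), in the order printed.
Pvalb inner start: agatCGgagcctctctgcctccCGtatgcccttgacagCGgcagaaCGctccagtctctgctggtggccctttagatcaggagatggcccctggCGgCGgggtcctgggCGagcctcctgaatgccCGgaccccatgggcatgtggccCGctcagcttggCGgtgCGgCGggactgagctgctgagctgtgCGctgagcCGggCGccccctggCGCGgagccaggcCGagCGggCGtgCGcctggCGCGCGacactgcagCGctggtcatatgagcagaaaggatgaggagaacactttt
Pvalb outer start: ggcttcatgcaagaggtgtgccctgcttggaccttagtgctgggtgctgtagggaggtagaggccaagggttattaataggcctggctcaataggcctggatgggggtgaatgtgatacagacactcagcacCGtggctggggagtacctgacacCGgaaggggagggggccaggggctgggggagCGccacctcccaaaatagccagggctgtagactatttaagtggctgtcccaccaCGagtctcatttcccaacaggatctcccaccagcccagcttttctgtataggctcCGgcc
Cacna1s: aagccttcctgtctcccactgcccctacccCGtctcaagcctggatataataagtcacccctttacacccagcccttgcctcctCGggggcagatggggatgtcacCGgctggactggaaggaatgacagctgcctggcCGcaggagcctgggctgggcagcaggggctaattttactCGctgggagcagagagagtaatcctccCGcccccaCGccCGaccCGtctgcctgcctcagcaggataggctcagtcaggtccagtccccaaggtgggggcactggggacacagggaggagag
Casq1: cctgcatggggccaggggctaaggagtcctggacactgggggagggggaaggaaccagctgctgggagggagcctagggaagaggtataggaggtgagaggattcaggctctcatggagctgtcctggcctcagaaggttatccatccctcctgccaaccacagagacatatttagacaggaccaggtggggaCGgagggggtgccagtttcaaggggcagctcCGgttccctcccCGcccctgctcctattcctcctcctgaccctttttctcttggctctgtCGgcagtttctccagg
Casq2: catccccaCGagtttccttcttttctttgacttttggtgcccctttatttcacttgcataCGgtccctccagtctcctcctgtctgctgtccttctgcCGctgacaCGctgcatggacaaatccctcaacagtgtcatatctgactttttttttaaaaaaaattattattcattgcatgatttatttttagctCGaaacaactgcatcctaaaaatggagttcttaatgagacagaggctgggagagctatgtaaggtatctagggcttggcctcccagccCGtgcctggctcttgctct

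The inner Pvalb window held 25 CpG, an observed over expected ratio of 0.732, and the outer window 5 CpG and a ratio of 0.199. The H3K4me3 peak covered each of the 300 bases of the inner window and none of the outer. Cacna1s had 9 CpG (ratio 0.303) and Casq1 4 (0.148), with 300 and 294 bases under a peak. Casq2 had 6 CpG (0.414), Ryr1 9 (0.374) and Atp2a1 4 (0.137), with no base under a peak. Thus 3 of the 7 windows were overlapped by H3K4me3, against 53.2% of 21262 windows of coding genes.

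CpG content and H3K4me3 went together over all windows. A peak overlapped 2.48% of windows with a ratio under 0.25, 24.1% of those from 0.25 to 0.5, 78.1% of those from 0.5 to 0.75 and 94.7% of those at 0.75 or more. The median ratio of the 7 windows of the calcium handling genes was 0.303, and that of all windows 0.567. The inner Pvalb start is in a class where most windows are marked. Casq1 is 1 of the 2.48% in the lowest class, and Cacna1s 1 of the 24.1% in the next. All of these calls rest on the same H3K4me3 list.

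**Figure D3:**
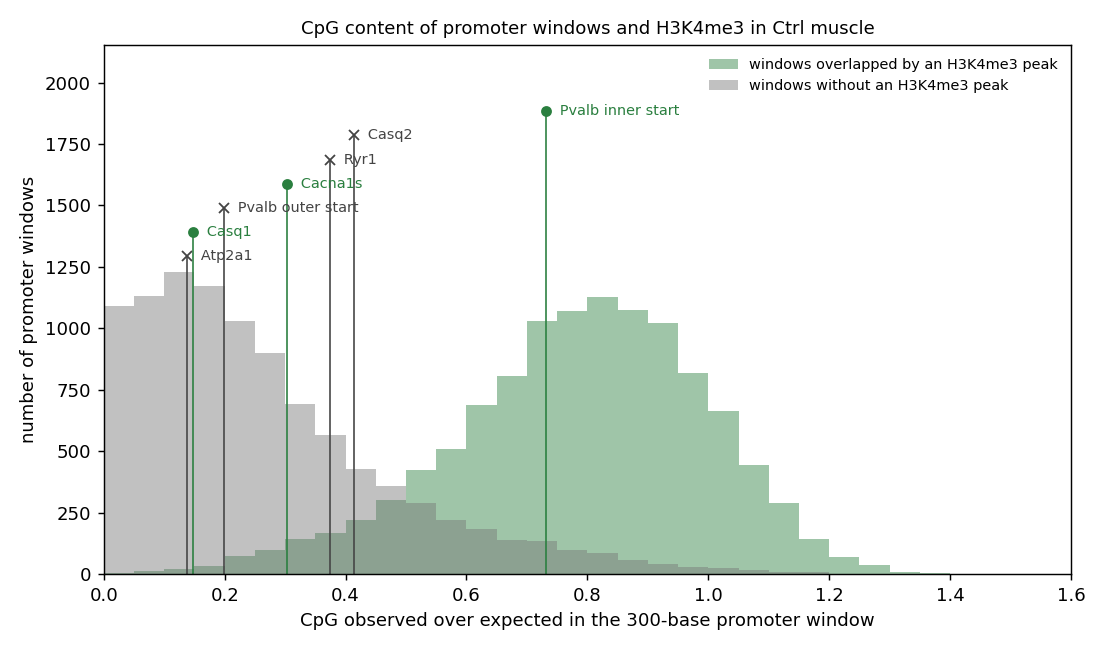
Number of promoter windows of coding genes by CpG observed over expected, for windows overlapped by an H3K4me3 peak in Ctrl (green bars) and windows without (grey bars). Lines mark the 7 windows of the calcium handling genes (green circles with a peak, grey crosses without), and the inner Pvalb start at 0.732 is the 1 that lies among the bulk of marked windows.

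Short sequence motifs were looked up in the same windows, on both strands. The E-box CANNTG was in 5 of the 7 windows, and in 69.0% of all windows. In the Casq1 window its copies began 195 and 67 bases before the start, and in that of Cacna1s 160 and 123 bases before. The MEF2 motif was in 2 windows, those of the outer Pvalb start, 180 bases before it, and of Casq2, 69 bases before, and in 2.74% of all windows. Both starts with a MEF2 match had no H3K4me3 peak over the window, as was so for 4 of the 7 windows. Over all coding genes the motif was in 4.56% of windows without an H3K4me3 peak and 1.14% of those with one. CCAAT was in 2 windows (Ryr1 and Atp2a1; 38.2% of all), and TATAAA and the CArG motif were in 0 of 7 (12.6% and 1.52% of all). A match is a description of these letters and not of a bound factor.

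H3K9me2 had 1 peak in these windows in each genotype. In CKO 1 of the 10 windows held a peak, where 19.4% of coding genes had one, and in Ctrl likewise 1 of 10, where 6.34% had one. On 1 gene each, no difference from coding genes in general is read from these shares, and counting error alone puts 1 peak anywhere from 0.0253 to 5.57 (exact 95% Poisson interval). Per 100 kb of window that was 0.141 in CKO and 0.141 in Ctrl, against 0.412 and 0.112 over all coding genes. The whole CKO list was 3.47 times as long as the Ctrl list, and at 1 peak each the windows cannot show whether these genes followed it.

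**Figure D4:**
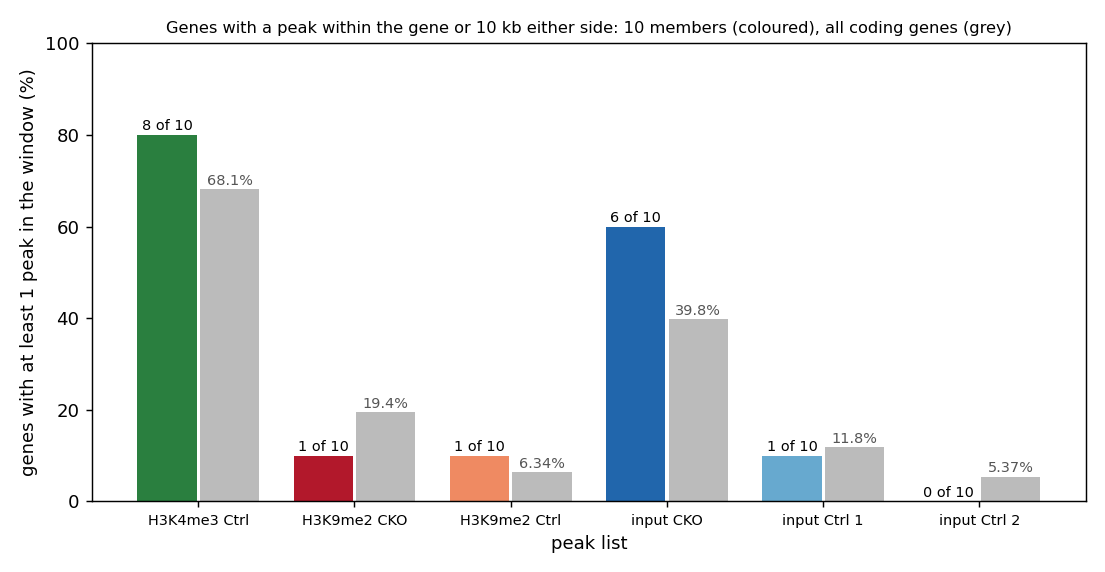
Percent of genes with at least 1 peak in the gene or 10 kb either side, for the 10 calcium handling genes (coloured bars, counts above) and all 21883 coding genes (grey bars), by peak list. H3K4me3 and the CKO input reach 8 and 6 of 10, and each H3K9me2 list 1 of 10.

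The CKO peak was at Casq2, and outside the gene. It spanned chr3:102152658-102152989, 6.14 kb beyond the gene end and 594 bp from an end of Vangl1, with a fold of 4.53 on 6 fragments. The local background was 0.544, the lowest of its library, and the lowest summit in that list is 5 fragments. The peak overlapped no other list, and its fold exceeded that of 19.3% of its own list.

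The Ctrl peak was in the body of Jph1, at chr1:16953298-16953834, 11.2 kb from the lower-coordinate gene end. It had a fold of 4.95 on 8 fragments over a background of 0.817 and overlapped no other list. None of the genes described here had an H3K9me2 peak in both genotypes within its window. Within 50 kb either side Jph1 had a peak in both lists. Of all coding genes 19.4% had a window peak in CKO and 6.34% in Ctrl. The share with both is not given here, so the lack of a shared gene is not read as a difference between genotypes. Where no peak is listed the mark may still be present, since summits in these lists rest on few fragments and weaker sites fall under the authors' limit.

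The distance to the nearest H3K9me2 peak varied widely among the genes. From the gene to the nearest peak the median over the 10 genes was 199 kb in CKO and 509 kb in Ctrl, against 95.7 and 394 kb over all coding genes. Atp2a1 had the widest gap in CKO, 1148 kb, and 1001 kb in Ctrl. Pvalb had 641 kb in CKO and 2087 kb in Ctrl, and Stac3 753 and 800 kb. For 6 of the 10 genes in CKO and 8 in Ctrl the distance exceeded the median of all coding genes, and the exceptions in CKO were Ryr1 (30.5 kb), Jph1 (47.5 kb), Casq2 and Sln (55.3 kb). A longer list has shorter distances by construction, so the CKO and Ctrl distances are not compared.

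**Figure D5:**
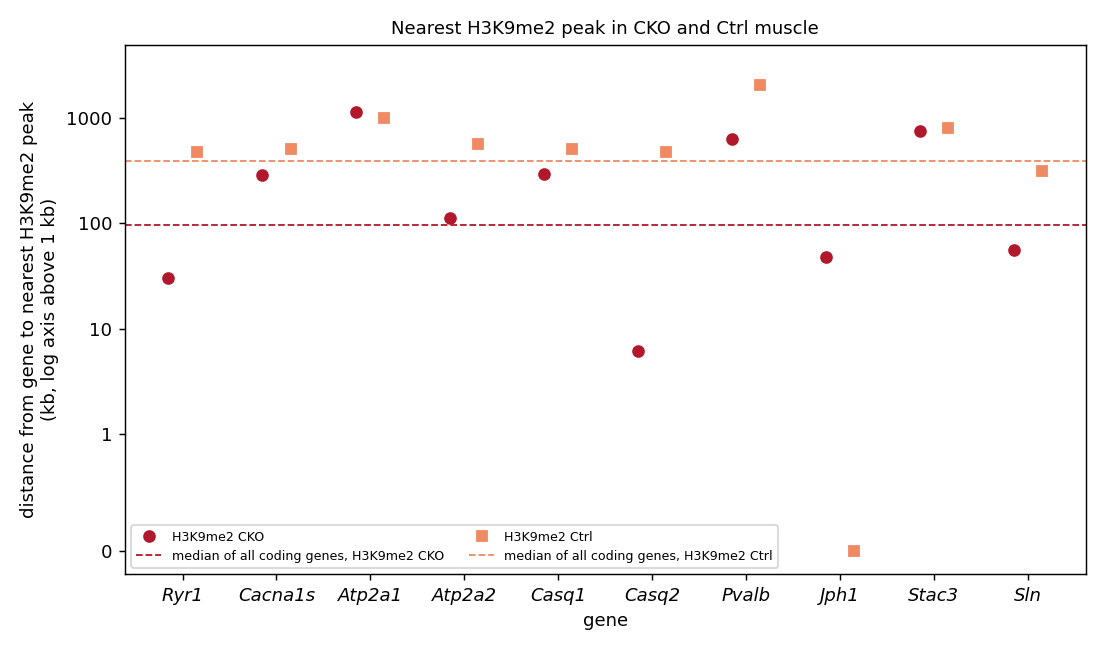
Distance in kb from each of the 10 genes to the nearest H3K9me2 peak in CKO (dark red circles) and Ctrl (orange squares), on an axis that is logarithmic above 1 kb, with the medians of all coding genes as dashed lines. In CKO Atp2a1, Stac3 and Pvalb lie farthest from a peak, and in Ctrl the peak inside Jph1 gives 0.

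The input lists give the background beside the marks, though the labels do not say how the inputs were prepared. The CKO input had 9 peaks in 6 of the 10 windows, against 1 peak in Ctrl input 1 and 0 in Ctrl input 2. Of all coding genes 39.8% had a CKO input peak, 11.8% one of Ctrl input 1 and 5.37% one of Ctrl input 2. The whole CKO input list was 3.56 and 8.35 times as long as those of Ctrl inputs 1 and 2. The density in these windows was 1.27 per 100 kb, against 0.738 over all windows. It rests on 9 peaks, 4 of them in Ryr1, with an exact Poisson interval of 4.12 to 17.1 peaks. The count that the density of all windows would give lies inside this interval, so no excess is read.

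The CKO input peaks lay in 2 kinds of place. At Pvalb (chr15:78204179-78204486, fold 7.78, 16 fragments), Atp2a2 (chr5:122501351-122501974, fold 6.11, 12 fragments), Jph1 (chr1:17096838-17097873, fold 5.55, 10 fragments) and Atp2a1 (chr7:126464058-126464353, fold 3.84, 6 fragments) they overlapped the H3K4me3 start peak. That is 4 of the 8 start peaks, where 38.7% of the coding genes with a start peak had such an overlap. The Pvalb input peak exceeded 97.6% of its list in fold. At Cacna1s the input peak lay over the neighbour Ascl5, 1.25 kb from the start of Cacna1s.

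Ryr1 differed. It had 4 CKO input peaks along its body, at chr7:29019579-29020008, chr7:29059670-29060024, chr7:29087378-29087672 and chr7:29115849-29116160, with folds of 3.77, 4.80, 3.48 and 5.31 on 8, 7, 5 and 8 fragments. None overlapped a peak of another list. The single Ctrl input peak, chr1:172206257-172206849 (fold 6.10, 10 fragments), lay at the Pea15a start in the Casq1 window. Of all lists, the peak just inside the limit of 10 kb was that of H3K4me3 in Rabep2, 6.94 kb from Atp2a1, and the peak just outside was one of the CKO input 10.9 kb from Casq1. Leaving out H3K4me3 peaks that overlap any input peak left start peaks at Ryr1, Cacna1s, Casq1 and Stac3, 4 of 10. Any input peak overlapped 4 of the 8 start peaks, and the highest start peak of 5789 of the 13138 coding genes with one. The loss is thus not particular to these genes. Whether input signal adds to the H3K4me3 peaks of Pvalb, Atp2a2, Jph1 and Atp2a1 was not tested, since the overlapping input is CKO and the H3K4me3 library Ctrl, and no Ctrl input peak overlapped them.

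Of 50 other genes of calcium handling, 43 had an H3K4me3 peak within 2 kb of the start, against 60% of all coding genes. Where no start is listed either gene end was accepted, and some of the counted peaks lay outside the gene. Over the 43 the median fold was 9.81 and the median summit 75 fragments, against 11.2 and 68 for all coding genes with a start peak. Of the 43, 21 reached the median fold of the H3K4me3 list, against 61.9% of the coding genes with a start peak. The highest were Micu2 (14.7) and Mcu (13.7), the regulator and pore of mitochondrial calcium uptake, Tmem38b (14.0), a cation channel of the reticulum, and Dysf (13.9), a membrane repair protein.

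The 7 of 50 without a start peak were Ryr2, the cardiac release channel, Slc8a1, a sodium-calcium exchanger, Trdn, which tethers calsequestrin, the pump regulators Pln and Mrln, Atp2b4, a calcium pump of the cell membrane, and Camk2a, a calmodulin-dependent kinase. Of these, Slc8a1, Trdn, Atp2b4 and Camk2a each had 1 H3K4me3 peak elsewhere in the window, and Ryr2, Pln and Mrln had none. H3K9me2 was in the window of 14 of the 50 in CKO and 4 in Ctrl (19.4% and 6.34% of coding genes). Ryr2 had 5 peaks in CKO, the highest with a fold of 8.22 on 12 fragments, and 1 in Ctrl (4.79 on 7 fragments). Slc8a1 had 5 in CKO (highest 8.70 on 17 fragments), against 0 in Ctrl, and Trdn 1 in CKO (8.78 on 14 fragments), against 0 in Ctrl. Ryr2 is 554 kb long, Trdn 393 kb and Slc8a1 365 kb, and the part of gene length in these counts was not tested. The CKO peaks of Tmem38b (8.06) and Slc8a3, another exchanger (6.85), overlapped an input peak. The window of Sypl2, a triad protein, held 2 CKO peaks. The higher (6.66) lay outside the gene and overlapped no input peak. The CKO input had peaks in the windows of 29 of the 50 genes (39.8% of coding genes), Ctrl input 1 in 11 (11.8%) and Ctrl input 2 in 5 (5.37%).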

How the data were processed

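Per the submitters' processing notes, alignment used Bowtie2 and peak calling MACS2, on mm10. There is 1 list per library. No source says whether an input was the control. The authors deposited for each peak its fold (a ratio over local background), its p-value and q-value as −log10, a score and the summit offset.

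Peaks off chromosomes 1 to 19, X and Y were dropped, and 1 bp of overlap counted. Genes and promoter windows came from RefSeq GRCm38.p6, with starts for 17491 of 21883 coding genes. Summit fragments and background were solved from fold and p, matched to 0.1% for between 98.7% and 99.97% of peaks per list, and were tested on simulated data (2000 of 2000 peaks recovered). The fold was taken as fragments plus 1 over background plus 1, so it is lower than the plain ratio of the printed values. The CpG ratio is the CpG count times the window length over the product of C and G counts. Percentiles are shares of lower values.

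The genes and lists were chosen with earlier results of these data known. The genes named are the 10 genes with each of their peaks and, of the other 50, the 4 highest by H3K4me3 fold, those without a start peak and the 6 highest by H3K9me2 fold in CKO, beside the neighbours at a peak. Of the markers of other cells, 1 gene is not reported here. Tools were scipy 1.17.1, matplotlib 3.10.9, pandas 2.3.3 and numpy 2.4.6 in Python 3.11.15. Intervals cover counting error alone.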

Additional observations from a re-analysis of the deposited data

How the results depend on the processing

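Of 40 alternative values, 22 stayed within 1.5 times the reported one (the CpG ratio within its spread). The count of genes with H3K4me3 at the start was 0 with peaks at or above the median fold, 5 at q of 1e-05 or less and 4 with input-free peaks, and 6 to 8 under the other 4 alternatives. An input peak overlapped the highest start peak in 5789 of the 13138 coding genes with one. Genes with a CKO H3K9me2 peak were 0 in the gene body alone, 0 with the higher folds, 0 at the stricter q, 0 with lists of equal length and 3 within 50 kb. Of all coding genes 14.1% had a CKO H3K9me2 peak in the body and 36.9% within 50 kb. Genes with a Ctrl H3K9me2 peak were 0 at the stricter q and 1 under each other alternative, where coding genes had 4.72% in the body and 12.9% within 50 kb. The ratio of H3K9me2 peaks, CKO over Ctrl, was 0 in the body, 0 with the higher folds, 0 with equal lists and 4 within 50 kb, and could not be formed at the stricter q. Genes with a CKO input peak fell to 2 at the stricter q. Genes with a Ctrl input peak were 0 in the body, 0 at the stricter q and 3 within 50 kb, and 0 to 1 without either replicate: the 1 peak was in Ctrl input 1. For Ctrl input 1 the shares of coding genes were 8.79% in the body and 23.0% within 50 kb. For the H3K9me2 and input lists no such share is given at the stricter q, the higher folds or equal lists. Those counts are therefore not read as particular to the 10 genes. Counts this small rest on single peaks of 6 to 10 fragments. No paired analysis was possible because CKO and Ctrl have 1 H3K9me2 library each, share at most 1 replicate number, which the labels tie to no shared animal or day, and were compared without a test.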
